A study of Mus musculus with 18 samples.

Results

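The autophagy machinery genes studied here are 41 genes of the 22524 counted in the liver of A226Y and WT mice. They were chosen by name for their role in building an autophagosome or in loading cargo into it. The choice was not made by their expression, but earlier results of these data were known. All 41 were found by Ensembl identifier, and all 41 passed the filter on low counts. They comprise 5 genes of the initiation complex, 6 of the nucleation complexes, 5 that supply membrane, 16 of the conjugation systems, 7 cargo receptors and 2 transcription factors. RNA was sequenced from the liver of 10 female *Rps2*-A226Y mice and 8 female wild-type (WT) mice, all C57BL/6 and 15 months old, with 1 library per mouse. The A226Y mice were heterozygous for an *Rps2* allele with an alanine-to-tyrosine change in RPS2, a protein of the small ribosomal subunit, which raises the error rate of translation. Their stop cassette was removed by Cre under the ubiquitous CMV promoter, and according to the methods excision was partial in every animal, so each liver was a mosaic in which some cells kept the silent allele. The WT mice also carried CMV-Cre. The comparison asks how the mRNAs of this degradation route stood in liver that carries the mutation. The paper measured the error rate in a cultured cell line and not in these livers.

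Macroautophagy encloses cytoplasm in a double membrane, the autophagosome, which then fuses with the lysosome. The ULK1 kinase complex starts the process, the VPS34 lipid kinase complex marks the site with phosphatidylinositol 3-phosphate, the ATG2 proteins feed lipid into the growing membrane, and enzymes related to ubiquitin ligation attach LC3 and GABARAP proteins to it, to which cargo receptors bind. In liver the route is known for supplying amino acids and lipids in fasting and for clearing damaged mitochondria and protein aggregates. Much of its control acts on proteins, which were not analysed here.

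The following facts about the libraries bear on the values below. Total counts ran from 23850565 to 62126131 per mouse, and the lowest count of any member in any mouse was 65. *Rps2* was lower in all 10 A226Y mice than in any WT mouse, at 46.9 to 83.04 CPM against 104 to 143 CPM, where CPM are counts scaled to library size with the TMM factors. The lower *Rps2* level and the mutation go together in these libraries, so their parts cannot be told apart. The paper compared separate mice with the silent allele for this purpose, and those were not analysed here. The 8 hepatocyte markers were abundant in every library, with a summed level of 96478 to 179453 CPM in WT and 77794 to 153091 CPM in A226Y. A226Y animal 29 stood apart: it had the lowest hepatocyte marker sum, 77794 CPM, and the highest Kupffer cell and macrophage sum, 1083 CPM, and it was the highest A226Y mouse for 9 members and the lowest for 20. WT animal 33 had the highest lymphocyte sum, 47.6 CPM, and was the lowest WT mouse for 14 members. The members with values for single mice below are also given without these 2 mice where that ended or gave a call or moved the estimate by over 1.5 times. The other members did not pass with or without either mouse, and several of their small log2 fold changes moved by over 1.5 times, among them *Map1lc3a* from 0.082 to 0.0023 and *Ulk1* from 0.041 to 0.088 without WT animal 33, *Atg13* from 0.078 to 0.045 and *Atg4a* from 0.064 to 0.12 without A226Y animal 29, and *Bnip3* from 0.088 to 0.13 without animal 29 or 0.052 without animal 33. Those of *Pik3r4*, *Atg3* and *Atg10* changed sign without animal 29, and those of *Uvrag*, *Wipi2*, *Atg12* and *Optn* without animal 33.

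The summed mRNA of the autophagy machinery overlapped between the genotypes. The summed CPM of the 41 members ranged from 2538 to 2992 (median 2843) in WT and from 2656 to 3039.8 (median 2873) in A226Y. In edgeR's quasi-likelihood test, with p-values adjusted over all 13353 tested genes by the Benjamini-Hochberg method, 5 members passed an adjusted p of 0.05. The lipid transfer genes *Atg2a* and *Atg2b* and the cargo receptors *Tax1bp1* and *Bnip3l* were higher in A226Y, and the conjugation enzyme *Atg7* was lower. That is 12.2% of the members, where 14.3% of all tested genes passed. The 4 higher members are 9.76% of the list, against 7.27% of all genes higher, and the single lower member is 2.44%, against 7.03% lower. Since 12.2% lies under the background, passing at this rate was not particular to the list. With scaling to library size only, 5 members were higher and 0 lower, while 67.9% of all calls were higher in place of 50.8%.

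The differences were small in every member. The median log2 fold change was 0.021 over the members and −0.0044 over all tested genes, 25 of 41 were above 0, only *Atg2b* and *Atg16l2* exceeded 0.25 in size, and none exceeded 0.5. The mice of one genotype were also alike: the median SD of log2 CPM within a genotype was 0.13 for the members, against 0.21 for all tested genes. For 35 of the 36 members that did not pass, the 95% interval of the difference lay inside 0.5 either way on the log2 scale, that is, within 1.41-fold; *Atg16l2* was the exception. The genotypes overlapped in all 41 members, while the groups did not overlap in 0.637% of all tested genes. Thus a change of more than 1.41-fold would lie outside the intervals of all members but *Atg16l2*.

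**Figure D1:**
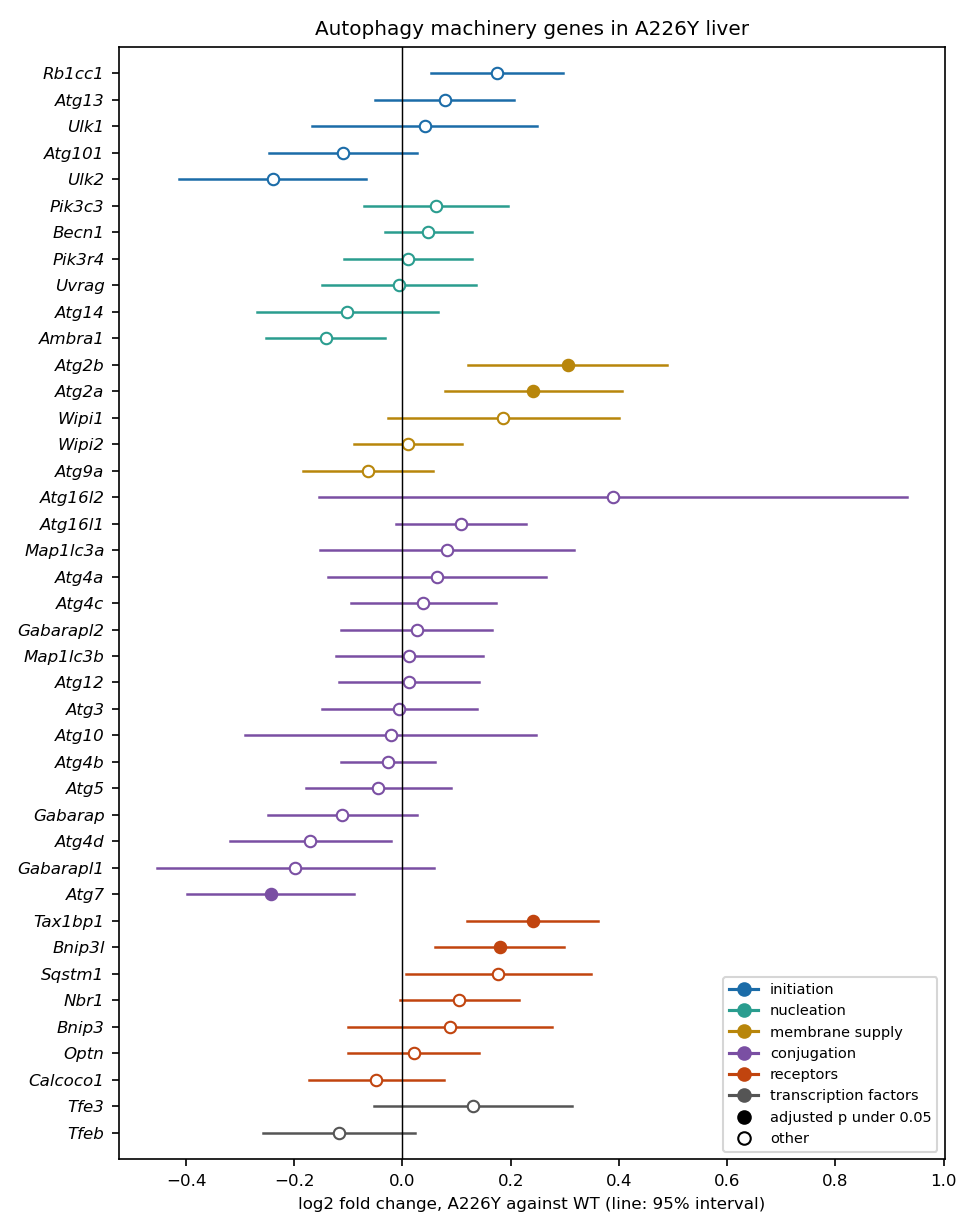
Log2 fold change of each of the 41 members in A226Y against WT liver, grouped by step; points are estimates, lines are 95% intervals, and filled points have an adjusted p under 0.05. The 5 filled points are *Atg2b*, *Atg2a*, *Tax1bp1* and *Bnip3l*, to the right of 0, and *Atg7*, to the left.

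Of the initiation complex, none of the 5 genes passed the test. An unadjusted p under 0.05 was held by 2 of the 5, beside 10 of the 41 members and 3953 of all 13353 tested genes. DESeq2 called those 2 (*Rb1cc1* and *Ulk2*) while limma-voom called neither. *Rb1cc1*, which encodes FIP200, the scaffold of the complex, came nearest. *Rb1cc1* ranged from 35.1 to 43.5 CPM (median 40.1) in the WT mice and from 39.3 to 50.9 CPM (median 46.1) in the A226Y mice. Of the A226Y mice, 6 lay above every WT mouse (log2 fold change 0.17, SE 0.058, adjusted p = 0.05002, just over the threshold). It went under 0.05 without A226Y animal 5, 15, 18 or 29 or WT animal 4, 6 or 28 (adjusted p 0.0207 to 0.0488, log2 fold change 0.18 to 0.20 over these mice), with an adjusted p of 0.0207 without animal 29. With an offset for transcript length the log2 fold change of *Rb1cc1* shrank to 0.071 (adjusted p = 0.394) and with one for GC content to 0.092 (0.244), whereas *Rb1cc1* passed with library size scaling (log2 fold change 0.22, adjusted p = 0.0188), with upper quartile scaling (adjusted p = 0.0459) and with at least 10 counts asked of every mouse (adjusted p = 0.0473). *Ulk2*, a kinase of the complex, pointed the other way. Across the WT mice *Ulk2* lay between 47.7 and 67.5 CPM (median 57.4), against 35.3 and 55.7 CPM (median 50.7) across the A226Y mice. None of the A226Y mice exceeded the WT mean (log2 fold change −0.24, SE 0.083, adjusted p = 0.056), and the adjusted p fell under 0.05 without A226Y animal 5 or WT animal 4 or 6 (adjusted p 0.0246 to 0.0485, log2 fold change −0.28 to −0.26). The lowest *Ulk2* value was that of A226Y animal 29, without which the log2 fold change was −0.20 (adjusted p = 0.0514). *Ulk2* passed with the length offset (log2 fold change −0.30, adjusted p = 0.0271), with the GC offset (−0.26, adjusted p = 0.0357) and with upper quartile scaling (adjusted p = 0.0448). The other kinase, *Ulk1*, gave 0.041 (95% interval −0.17 to 0.25), and the ULK1 adaptor gene *Atg13* gave 0.078 (95% interval −0.050 to 0.21). *Atg101*, whose product stabilises ATG13, had the highest level per kilobase of this step. The WT values of *Atg101* spanned 24.9 to 28.7 CPM (median 27.3) and the A226Y values 20.8 to 31.8 CPM (median 24.8). The groups overlapped broadly (log2 fold change −0.11, SE 0.066, adjusted p = 0.271), with 5 A226Y mice below all WT mice and 1 above them. The estimate of *Atg101* was −0.040 with the length offset, −0.045 with the GC offset and −0.066 with library size scaling.

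None of the 6 nucleation genes passed in edgeR, DESeq2 or limma-voom, and the log2 fold changes lay between −0.14 and 0.062. An unadjusted p under 0.05 was held by 1 of the 6 (*Ambra1*), beside 3953 of all 13353 tested genes. *Becn1*, the Beclin 1 subunit on which regulators of the kinase converge, had the smallest SD within a genotype of all members, 0.047 on the log2 scale. For *Becn1*, 64.1 to 72.3 CPM (median 68.5) was measured in WT and 68.5 to 74.7 CPM (median 69.9) in A226Y. All 10 A226Y mice lay above the WT mean, by a small margin (log2 fold change 0.048, SE 0.038, adjusted p = 0.43, 95% interval −0.033 to 0.13), and the exact permutation test over all 43758 divisions of the mice gave p = 0.0482, unadjusted. *Becn1* shares 3104 exon bases with *Cntd1* on the opposite strand, and the counts do not show strand, so its value is uncertain. The lipid kinase *Pik3c3* (VPS34) gave 0.062 (95% interval −0.070 to 0.19) and its partner *Pik3r4* (VPS15) 0.010 (95% interval −0.11 to 0.13). *Atg14*, which directs the kinase to the site of autophagosome formation, gave −0.10 (95% interval −0.27 to 0.065), and *Uvrag*, which takes its place in the complex that acts on endosomes, gave −0.0070 (95% interval −0.15 to 0.14). *Ambra1*, a regulator that binds Beclin 1, had the largest difference of this step. *Ambra1* ranged from 22.7 to 29.6 CPM (median 23.3) in the WT mice and from 20.1 to 23.2 CPM (median 22.3) in the A226Y mice. The highest WT value came from animal 21, and 8 A226Y mice lay below all WT mice (log2 fold change −0.14, SE 0.053, adjusted p = 0.0736), and the exact permutation test of log2 CPM gave p = 0.000686, unadjusted. Without WT animal 21 the log2 fold change was −0.096 (adjusted p = 0.154), and with the GC offset −0.085 (0.273). With the length offset *Ambra1* passed at −0.18 (adjusted p = 0.0262).

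The genes that supply membrane had 2 of 5 members higher in A226Y, where 7.27% of all tested genes were higher, and none lower, where 7.03% were, and nothing is read from a count over 5 genes. The median of their log2 fold changes was 0.19. The 2 that passed were ATG2 genes, which encode rod-shaped proteins that carry lipids from the endoplasmic reticulum into the growing membrane. Across the WT mice *Atg2b* lay between 23.1 and 40.1 CPM (median 32.1), against 34.4 and 46.01 CPM (median 38.3) across the A226Y mice. All 10 A226Y mice lay above the WT mean of *Atg2b* and 4 above every WT mouse. *Atg2b* (ENSMUSG00000041341, chr12:105616136-105685211 of GRCm38, minus strand) had the largest difference among the members that passed (log2 fold change 0.31, SE 0.088, adjusted p = 0.0261), and an exact permutation test of its log2 CPM gave p = 0.00267, unadjusted. The WT values of *Atg2a* spanned 39.9 to 57.98 CPM (median 49.7) and the A226Y values 49.6 to 73.6 CPM (median 57.1). *Atg2a* (ENSMUSG00000024773, chr19:6241668-6262335 of GRCm38, plus strand) was above the WT mean in all 10 A226Y mice too (log2 fold change 0.24, SE 0.078, adjusted p = 0.0444; exact permutation p = 0.00692, unadjusted). The highest A226Y value of both genes was that of animal 29. Without it, *Atg2b* still passed (log2 fold change 0.28, adjusted p = 0.0323) and *Atg2a* did not (0.20, adjusted p = 0.0516). *Atg2b* lost its call without WT animal 13, 21 or 24 (adjusted p 0.0514 to 0.057, log2 fold change 0.28 to 0.30). *Atg2a* lost its call without A226Y animal 7, 11, 15, 18, 22, 29 or 32 or WT animal 4, 13, 14, 21, 24 or 33 (adjusted p 0.0516 to 0.0921, log2 fold change 0.20 to 0.25). *Atg2a* also missed with upper quartile scaling (adjusted p = 0.0503) and with no filter beyond 1 count (0.0559). Neither passed with an offset for transcript length (log2 fold change 0.17, adjusted p = 0.153 for *Atg2a* and 0.21, 0.0848 for *Atg2b*). These 2 transcripts, at 6371 and 7546 bases, are among the longer ones of the list, and the part of length in their values was not tested. *Atg2b* shares 383 exon bases with *Gskip* on the opposite strand, which leaves its value uncertain.

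The ATG2 partners did not pass. *Wipi1*, which binds phosphatidylinositol 3-phosphate, gave 0.19 (95% interval −0.027 to 0.40), and *Wipi2*, which also recruits ATG16L1, gave 0.0098 (95% interval −0.090 to 0.11). *Atg9a*, the scramblase of the vesicles that seed the membrane, had the highest level per kilobase of the step. For *Atg9a*, 59.9 to 81.1 CPM (median 64.1) was measured in WT and 56.5 to 67.2 CPM (median 62.8) in A226Y. The groups overlapped (log2 fold change −0.064, SE 0.058, adjusted p = 0.485), and the highest WT value was that of animal 24. *Atg9a* shares 1832 exon bases with *Gm29253*, a gene on the same strand that was not in the counts, which leaves its value uncertain.

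**Figure D2:**
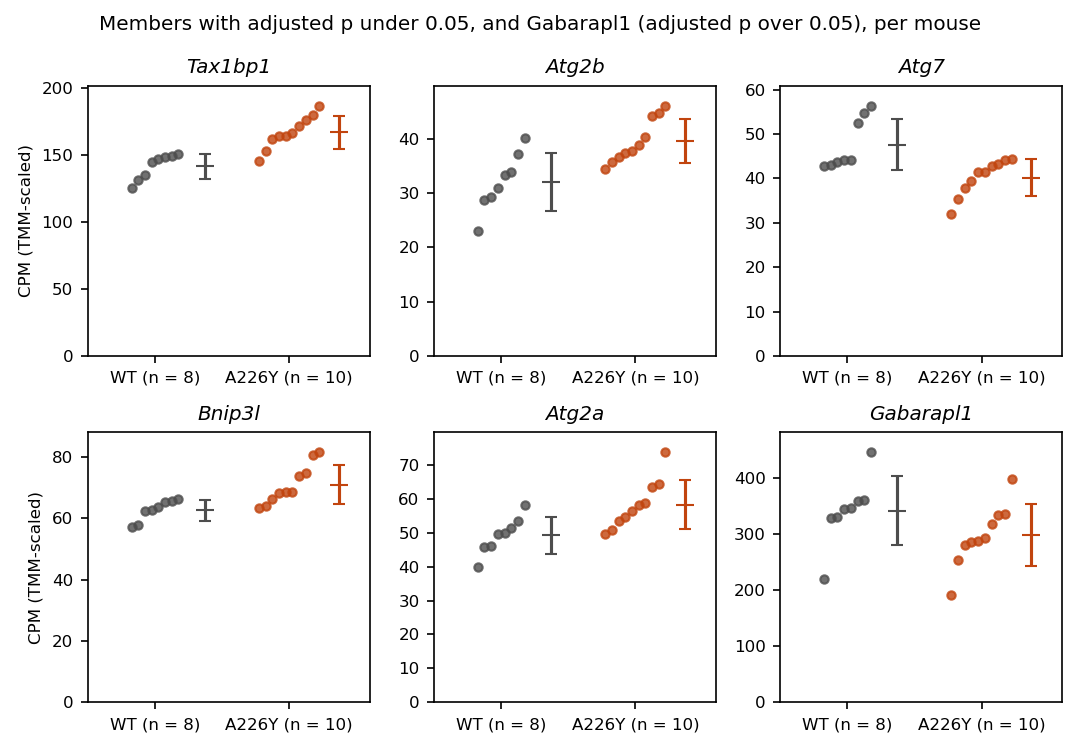
CPM per mouse (points) with mean and SD (bars beside them) of the 5 members with an adjusted p under 0.05, and of *Gabarapl1*, the member with the highest level per kilobase, which did not pass. All 10 A226Y mice lie above the WT mean for *Tax1bp1*, *Atg2b*, *Bnip3l* and *Atg2a* and none for *Atg7*, with overlap between the genotypes in every panel.

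In the conjugation systems 1 of 16 genes passed, *Atg7*, and it was lower (6.25% of the 16, against 7.03% of all tested genes lower). ATG7 is the E1-like enzyme that activates both ATG12 and the LC3 and GABARAP proteins. *Atg7* ranged from 42.7 to 56.3 CPM (median 44.1) in the WT mice and from 31.98 to 44.5 CPM (median 41.5) in the A226Y mice. None of the 10 A226Y mice reached the WT mean and 6 lay below every WT mouse, while 3 WT mice lay above all A226Y mice. *Atg7* (ENSMUSG00000030314, chr6:114643097-114860614 of GRCm38, plus strand) thus had a lower level in A226Y (log2 fold change −0.24, SE 0.074, adjusted p = 0.0335; exact permutation p = 0.00334, unadjusted). It lost its call without A226Y animal 3, 7 or 32 or WT animal 13, 14 or 24 (adjusted p 0.0522 to 0.0745, log2 fold change −0.24 to −0.21), with scaling to library size only (adjusted p = 0.0655) and with an offset for GC content (0.0892).

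The other conjugation enzymes gave small differences that did not pass. The E2-like enzyme genes *Atg3* and *Atg10* gave −0.0058 (95% interval −0.15 to 0.14) and −0.022 (95% interval −0.29 to 0.25). *Atg12* gave 0.012 (95% interval −0.12 to 0.14) and *Atg5*, to which ATG12 is joined, gave −0.044 (95% interval −0.18 to 0.090). *Atg16l1*, which places this conjugate on the membrane, spanned 33.6 to 39.98 CPM (median 37.6) in WT and 36.2 to 46.2 CPM (median 39.1) in A226Y, with 8 A226Y mice above the WT mean (log2 fold change 0.11, SE 0.058, adjusted p = 0.218; 0.071 with the GC offset). Its paralogue *Atg16l2*, the lowest member per kilobase, had the largest estimate of the list. *Atg16l2* ranged from 2.38 to 4.71 CPM (median 4.03) in the WT mice and from 3.13 to 14.3 CPM (median 3.74) in the A226Y mice. The A226Y median was below the WT median although the estimate was above 0, and A226Y animal 29 held 14.3 CPM and the next A226Y mouse 5.73 (log2 fold change 0.39, SE 0.26, adjusted p = 0.329). Without animal 29 the log2 fold change was 0.055 (adjusted p = 0.817), and limma-voom gave 0.23 with all mice.

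The ATG4 proteases trim LC3 and GABARAP proteins before conjugation and release them afterwards. *Atg4d* was the only one with an unadjusted p under 0.05. The WT values of *Atg4d* spanned 43.6 to 67.5 CPM (median 50.2) and the A226Y values 40.6 to 48.9 CPM (median 46.97). No A226Y mouse reached the WT mean (log2 fold change −0.17, SE 0.071, adjusted p = 0.112). Without WT animal 24, which held the highest value, the log2 fold change was −0.11 (adjusted p = 0.235), and with the length offset *Atg4d* passed at −0.24 (adjusted p = 0.0474). The 1405 exon bases shared with *Kri1* on the opposite strand leave the value uncertain. *Atg4a* gave 0.064 (95% interval −0.14 to 0.27), *Atg4b* gave −0.027 (95% interval −0.11 to 0.060) and *Atg4c* gave 0.039 (95% interval −0.096 to 0.17).

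The genes of the ubiquitin-like proteins LC3 and GABARAP include the most abundant member. *Gabarapl1* and *Gabarap* stood at 188 ± 33.7 and 157 ± 16.7 CPM per kilobase of transcript (SD, n = 8) in WT, the highest levels there, and at 164 ± 30.05 and 146 ± 10.3 (SD, n = 10) in A226Y, where the level of *Sqstm1* lay between them. For *Gabarapl1*, 219.9 to 445 CPM (median 345) was measured in WT and 192 to 398 CPM (median 289.8) in A226Y. Only 1 A226Y mouse exceeded the WT mean of *Gabarapl1*, but the lowest WT mouse, animal 33, and the lowest A226Y mouse, animal 29, lay far down (log2 fold change −0.20, SE 0.12, adjusted p = 0.29). Without both mice it gave −0.21 (adjusted p = 0.0923), and with the length offset −0.13 (0.506). *Gabarap* gave −0.11 (95% interval −0.25 to 0.027), *Gabarapl2* 0.026 (95% interval −0.11 to 0.17), *Map1lc3a* 0.082 (95% interval −0.15 to 0.32) and *Map1lc3b* 0.013 (95% interval −0.12 to 0.15). Per kilobase, *Gabarapl1* made up 39.1% to 50.3% of the summed level of these 5 genes in WT mice and 35.03% to 47.6% in A226Y mice. *Map1lc3b*, the gene of the LC3 form most used as an autophagosome marker, made up 3.90% to 6.31% and 4.02% to 5.47%. These levels divide by the longest annotated transcript, so a gene expressed mainly as a shorter form would have a higher level than given.

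**Figure D3:**
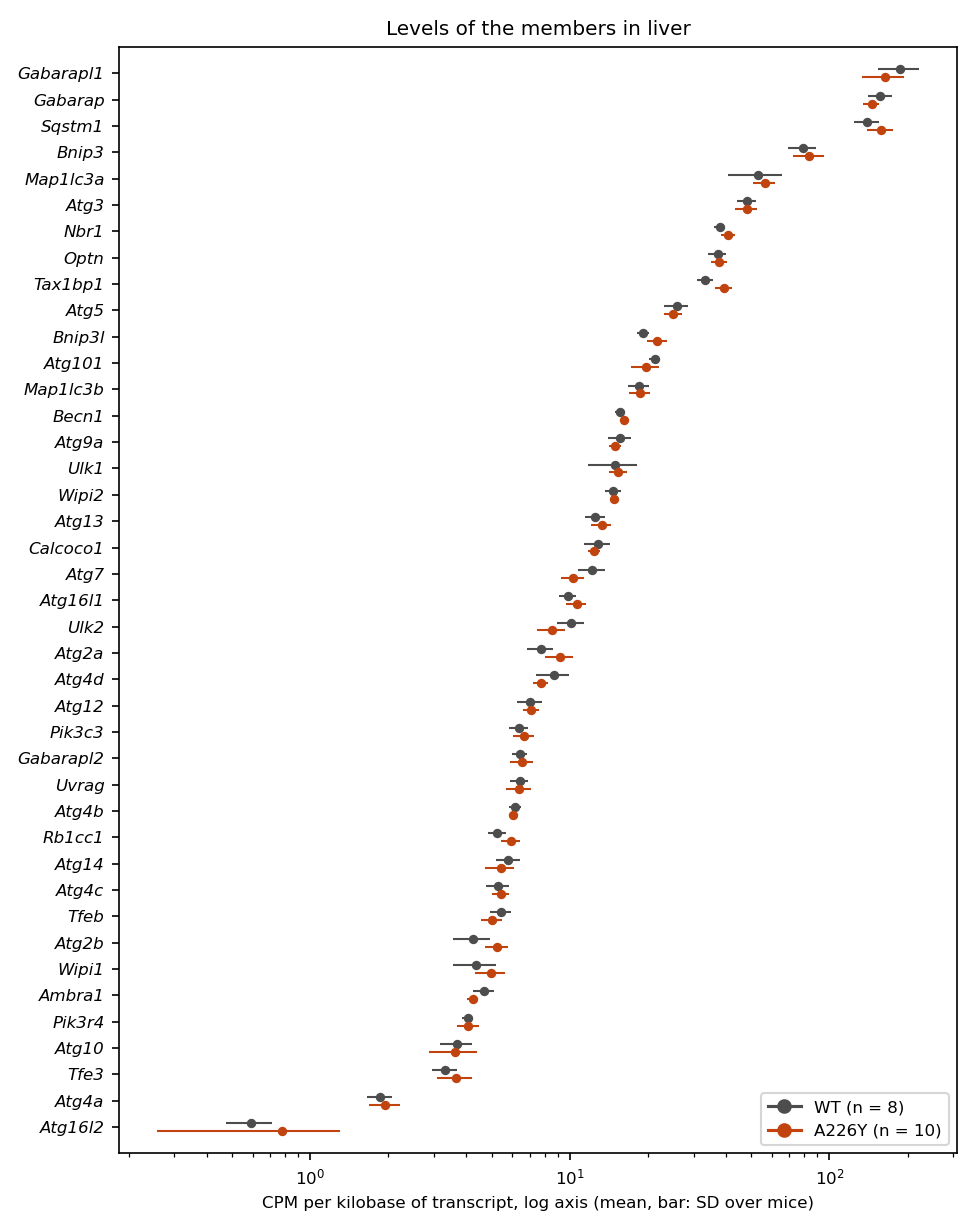
CPM per kilobase of transcript of each member (log axis; mean and SD over 8 WT and 10 A226Y mice). *Gabarapl1*, *Gabarap* and *Sqstm1* head the list in both genotypes, and *Atg16l2*, at 0.593 in WT, is the lowest.

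The cargo receptors had 2 of 7 members higher in A226Y and none lower, beside 7.27% and 7.03% of all tested genes. The estimates of 6 of the 7 were above 0, as were 6549 of all 13353, and nothing particular to the receptors is read from 7 genes. *Tax1bp1*, which binds ubiquitinated cargo and LC3 proteins, had the smallest p of all members. *Tax1bp1* ranged from 125 to 151 CPM (median 146) in the WT mice and from 146 to 187 CPM (median 165) in the A226Y mice. All 10 A226Y mice lay above the WT mean and 9 above the highest WT mouse. *Tax1bp1* (ENSMUSG00000004535, chr6:52713729-52766780 of GRCm38, plus strand) was thus higher in A226Y (log2 fold change 0.24, SE 0.058, adjusted p = 0.0106; exact permutation p = 0.000251, unadjusted), and it kept its call whichever mouse was left out (adjusted p 0.00523 to 0.0247). It did not pass with 4 surrogate variables in the model (adjusted p = 0.16), under which none of the 41 members did. *Tax1bp1* shares 160 exon bases with an annotated gene on the opposite strand that was not in the counts, which leaves its value uncertain. The surrogate variable model put the 4 higher members at 0.068 (*Atg2a*), 0.11 (*Bnip3l*), 0.13 (*Atg2b*) and 0.14 (*Tax1bp1*) and *Atg7* at −0.12 on the log2 scale.

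*Bnip3l*, also called *Nix*, encodes a receptor in the outer mitochondrial membrane that marks mitochondria for removal. Across the WT mice *Bnip3l* lay between 57.2 and 66.3 CPM (median 63.2), against 63.4 and 81.4 CPM (median 68.5) across the A226Y mice. All 10 A226Y mice exceeded the WT mean and 8 exceeded every WT mouse. *Bnip3l* (ENSMUSG00000022051, chr14:66985239-67008877 of GRCm38, minus strand) passed by a narrow margin (log2 fold change 0.18, SE 0.057, adjusted p = 0.041; exact permutation p = 0.00304, unadjusted). It lost its call without A226Y animal 7, 11, 22 or 32 or WT animal 4, 13, 14, 21, 24, 28 or 33 (adjusted p 0.0522 to 0.0831, log2 fold change 0.16 to 0.19) and with the offset for GC content (adjusted p = 0.153) or no filter beyond 1 count (0.0599). Its relative *Bnip3* gave 0.088 (95% interval −0.10 to 0.28).

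*Sqstm1*, which encodes p62, the receptor that gathers ubiquitinated protein into bodies, was the most abundant receptor at 139.7 ± 15.7 CPM per kilobase in WT (SD, n = 8) and 158 ± 18.6 in A226Y (SD, n = 10). For *Sqstm1*, 318 to 440.4 CPM (median 381) was measured in WT and 359 to 521 CPM (median 432) in A226Y. In A226Y, 8 mice exceeded the WT mean and 3 exceeded every WT mouse (log2 fold change 0.18, SE 0.082, adjusted p = 0.155). *Nbr1*, which acts with p62, lay above the highest WT mouse in 6 A226Y mice. The WT values of *Nbr1* spanned 163 to 191 CPM (median 182) and the A226Y values 170.2 to 211 CPM (median 198). The difference did not pass (log2 fold change 0.11, SE 0.053, adjusted p = 0.189), nor did it without WT animal 24, the lowest WT mouse (adjusted p = 0.314), or without A226Y animal 29 (0.0669). *Optn*, a receptor for mitochondria and bacteria, gave 0.021 (95% interval −0.10 to 0.14), and *Calcoco1*, a receptor for endoplasmic reticulum and Golgi, gave −0.048 (95% interval −0.17 to 0.077).

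**Figure D4:**
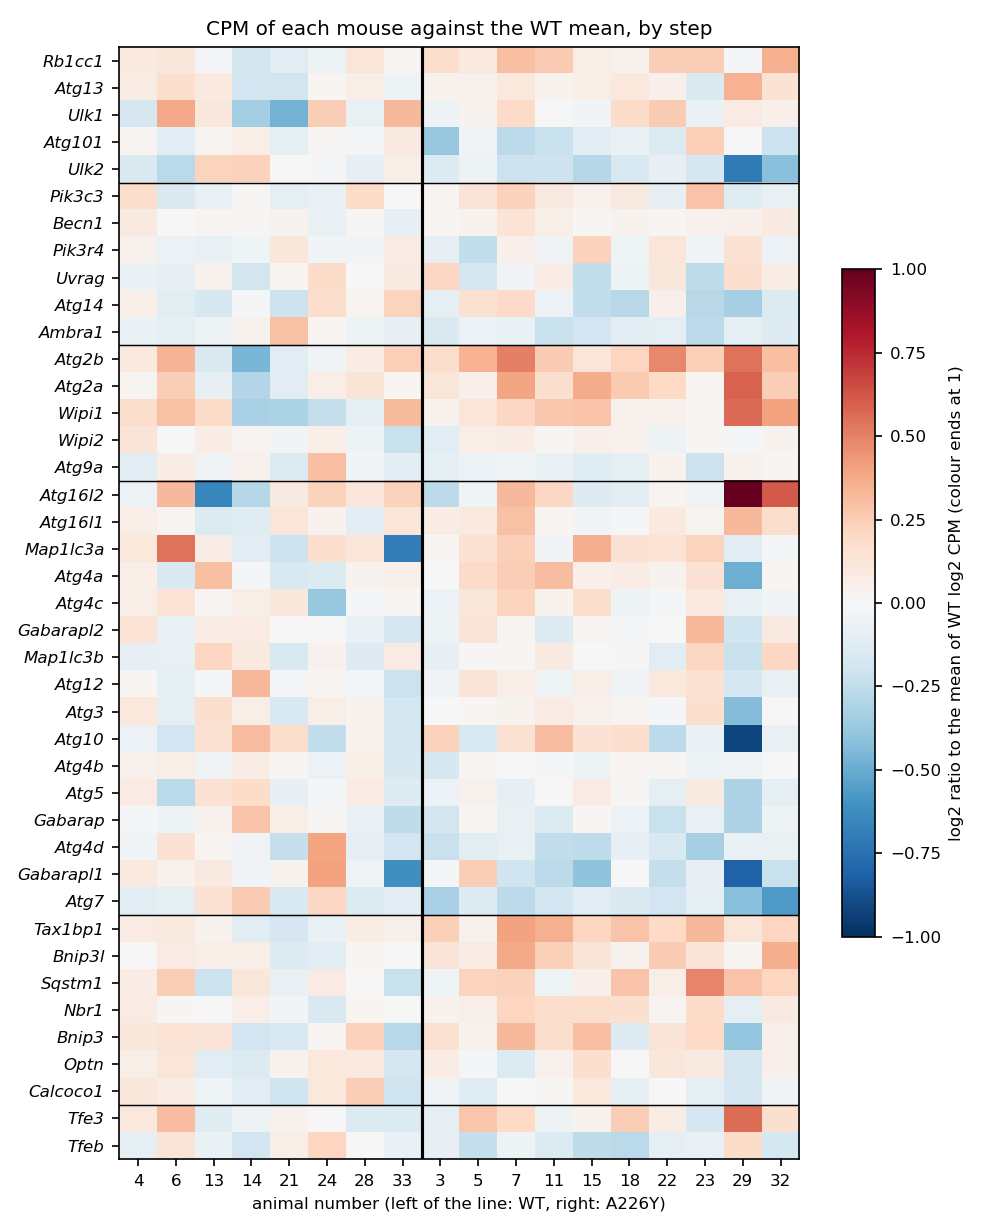
Log2 ratio of the CPM of each mouse to the mean of the WT log2 CPM, for the 41 members (rows, by step) in the 8 WT (left) and 10 A226Y (right) mice; colours end at a log2 ratio of 1 either way. The column of A226Y animal 29 holds the most extreme tiles, such as *Atg16l2* (high) and *Atg10* (low), while the rows of *Tax1bp1* and *Atg2b* lie above 0 in all 10 A226Y mice.

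TFEB and TFE3 are related transcription factors that enter the nucleus when mTORC1 is off and switch on lysosome and autophagy genes. Neither gene passed in edgeR, DESeq2 or limma-voom, and neither had an unadjusted p under 0.05. Across the WT mice *Tfeb* lay between 11.1 and 14.7 CPM (median 12.4), against 10.5 and 14.4 CPM (median 11.7) across the A226Y mice. The A226Y mouse with the highest *Tfeb* was animal 29 (log2 fold change −0.12, SE 0.067, adjusted p = 0.252; −0.15 and adjusted p = 0.0759 without it). *Tfe3* ranged from 19.02 to 25.8 CPM (median 20.4) in the WT mice and from 18.6 to 30.8 CPM (median 22.6) in the A226Y mice. Animal 29 was the highest here too (log2 fold change 0.13, SE 0.088, adjusted p = 0.331; 0.074 without it). The estimates were −0.070 for *Tfeb* and 0.055 for *Tfe3* with the length offset, and −0.035 for *Tfeb* with the GC offset and −0.073 with library size scaling.

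Both factors bind an E-box, CACGTG, so the promoters of the members were searched for these letters. RefSeq promoters on GRCm38.p6, from 250 bases before to 50 after the start of the gene, matched 34 of the 41 members; *Pik3c3*, *Bnip3l*, *Becn1*, *Atg12*, *Atg16l1*, *Map1lc3a* and *Rb1cc1* were not matched. The motif reads the same on both strands. It was present in 5 of the 34 (14.7%), against 2187 of 27025 genes with a promoter of the same length (8.09%). Its 6 occurrences are shown with 10 bases on each side, since they place the called gene *Atg7* beside 4 members that did not pass; capitals mark the motif and each line reads 5′ to 3′ on the strand of the gene.
Atg7, chr6:114670954-114670979, plus strand: tattggtggtCACGTGtgcagtaagt
Bnip3, chr7:138909599-138909624, minus strand: gcacgcgccgCACGTGccacacgctc
Atg5, chr10:44268315-44268340, plus strand: gagcgcttgcCACGTGgtcttggtga
Atg14, chr14:47568420-47568445, minus strand: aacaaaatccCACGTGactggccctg
Atg3, chr16:45158725-45158750, plus strand: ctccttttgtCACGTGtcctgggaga
Atg3, chr16:45158748-45158773, plus strand: agagtcgagtCACGTGaggccttagg

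The motif starts 132 bases before the start in *Atg7*, 108 in *Bnip3*, 14 in *Atg5*, 1 in *Atg14*, and 94 and 71 in *Atg3*. The RefSeq starts used for *Atg7* and *Atg14* lie inside the span of the gene in GENCODE M21, so other start sites of these genes were not searched. The log2 fold changes of these 5 genes were −0.24, 0.088, −0.044, −0.10 and −0.0058. A match of letters is a description of the window and says nothing of binding.

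The rest of the pathway was read from a list of 68 other autophagy genes, also drawn up with earlier results of these data known. Of these, 67 were tested and *Calcoco2* was not. Of the 67, 11 were higher in A226Y (16.4%, against 7.27% of all genes) and 4 were lower (5.97%, against 7.03%); the median over the 67 was 0.00965 on the log2 scale. The widest differences were among the further selective receptors, of which 5 of 20 tested were higher and 3 lower. Among receptors of the endoplasmic reticulum, *Retreg1* and *Atl3* were higher, *Retreg2*, *Retreg3* and *Tex264* were lower, and *Rtn3* (0.0096, adjusted p = 0.921), *Sec62* (−0.098, 0.29) and *Ccpg1* (−0.0094, 0.923) did not pass. *Retreg1* (FAM134B), which shapes and delivers sheets of endoplasmic reticulum, rose with the largest fold change of the list. *Retreg1* ranged from 49.6 to 90.04 CPM (median 78.3) in the WT mice and from 66.8 to 269 CPM (median 123) in the A226Y mice. In A226Y, 9 mice exceeded every WT mouse (log2 fold change 0.87, SE 0.19, adjusted p = 0.00645), and without A226Y animal 29 the log2 fold change was 0.71 (adjusted p = 0.00348).

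The relatives of *Retreg1* fell. Across the WT mice *Retreg2* lay between 198 and 244 CPM (median 217), against 146 and 191 CPM (median 181) across the A226Y mice. The genotypes did not overlap for *Retreg2*, as for 0.637% of all tested genes (log2 fold change −0.31, SE 0.063, adjusted p = 0.00453), and its exact permutation p of 2.29e-05, unadjusted, is the smallest that 43758 divisions can give. *Retreg3* fell less (log2 fold change −0.23, SE 0.068, adjusted p = 0.0285), from a median of 87.8 CPM in WT to 76.2 CPM in A226Y. *Tex264*, another receptor of the endoplasmic reticulum, also fell. The WT values of *Tex264* spanned 63.2 to 102 CPM (median 82.8) and the A226Y values 56.9 to 68.4 CPM (median 63.7). Here 4 A226Y mice lay below every WT mouse (log2 fold change −0.37, SE 0.079, adjusted p = 0.00588). *Atl3*, an atlastin that acts as a receptor for tubular endoplasmic reticulum, was higher (log2 fold change 0.22, SE 0.060, adjusted p = 0.0203), with 8 A226Y mice above all WT mice.

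**Figure D5:**
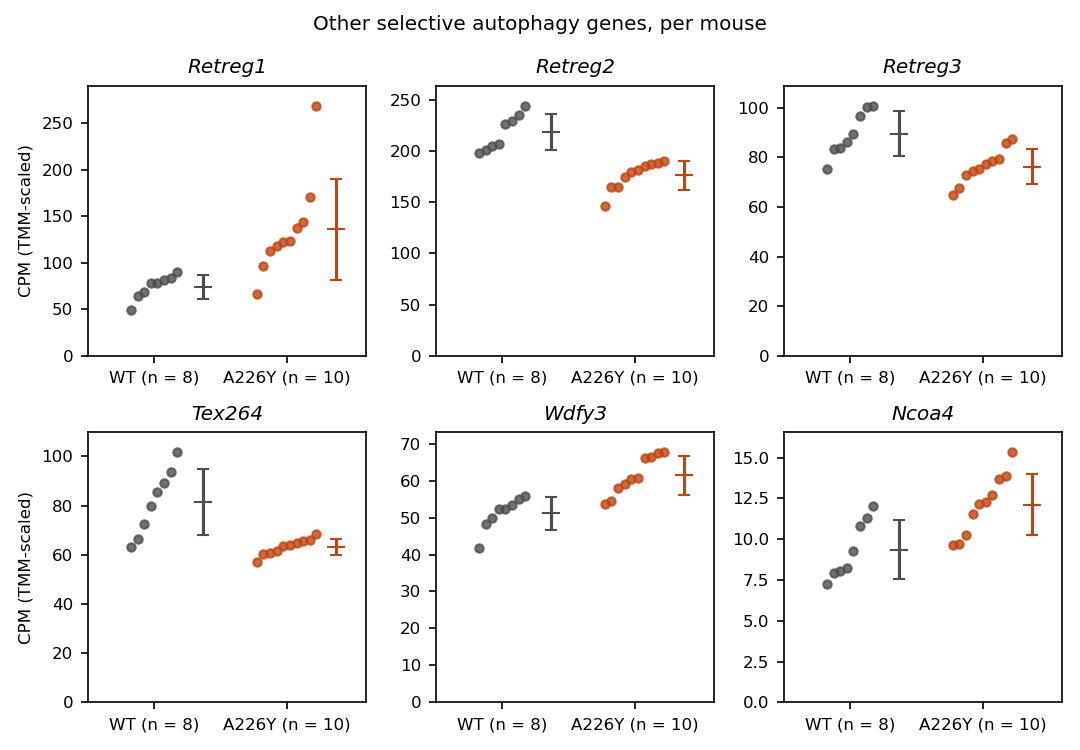
CPM per mouse (points) with mean and SD (bars) of 6 selective autophagy genes outside the list of 41. *Retreg1*, *Wdfy3* and *Ncoa4* are higher in A226Y, *Retreg2*, *Retreg3* and *Tex264* lower, and the genotypes overlap in each panel but that of *Retreg2*.

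Further selective autophagy genes were higher. *Ncoa4*, the receptor for ferritin, was measured in every mouse at a low level. For *Ncoa4*, 7.27 to 12.02 CPM (median 8.75) was measured in WT and 9.65 to 15.3 CPM (median 12.2) in A226Y. In 6 A226Y mice it was above all WT mice (log2 fold change 0.37, SE 0.11, adjusted p = 0.0323). *Wdfy3* encodes a scaffold for the removal of protein aggregates. The WT values of *Wdfy3* spanned 41.8 to 55.9 CPM (median 52.4) and the A226Y values 53.7 to 67.6 CPM (median 60.6). It was above all WT mice in 8 A226Y mice (log2 fold change 0.26, SE 0.062, adjusted p = 0.00987).

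Upstream and downstream of the members, the kinase genes *Prkaa1* (a catalytic subunit of AMPK; log2 fold change 0.21, SE 0.062, adjusted p = 0.03) and *Tbk1*, whose product phosphorylates cargo receptors (log2 fold change 0.16, SE 0.052, adjusted p = 0.0473), were higher. So were the scramblase gene *Vmp1* (log2 fold change 0.25, SE 0.070, adjusted p = 0.0243) and the SNARE gene *Vamp7* (log2 fold change 0.24, SE 0.071, adjusted p = 0.0284), the only 1 of 17 fusion genes to pass. The p53 target *Trp53inp1*, whose product binds LC3 proteins, was higher (log2 fold change 0.45, SE 0.14, adjusted p = 0.0338), as was *Creb1*, which encodes a transcription factor that activates autophagy genes in fasting (log2 fold change 0.24, SE 0.075, adjusted p = 0.0381). *Wdr45b*, a relative of *Wipi1* and *Wipi2*, was lower (log2 fold change −0.29, SE 0.077, adjusted p = 0.0161). *Retreg1*, *Retreg2*, *Tex264*, *Wdfy3*, *Wdr45b*, *Atl3* and *Vamp7* kept their calls whichever mouse was left out. *Vmp1* lost its call without WT animal 14 or 21 (adjusted p 0.0519 in both cases), *Retreg3* without A226Y animal 32 or WT animal 13, 14 or 24 (adjusted p 0.0507 to 0.0618, log2 fold change −0.21 to −0.20), and *Prkaa1* without A226Y animal 7 or 11 or WT animal 4, 13 or 14 (adjusted p 0.0516 to 0.0682, log2 fold change 0.18 to 0.21). *Ncoa4* lost its call without A226Y animal 7 or 32 or WT animal 13, 14, 21 or 24 (adjusted p 0.0563 to 0.0685, log2 fold change 0.32 to 0.35), and *Trp53inp1* without A226Y animal 7 or WT animal 4, 13, 14, 21 or 24 (adjusted p 0.0517 to 0.0715, log2 fold change 0.38 to 0.46). *Creb1* lost its call without A226Y animal 3, 5, 7, 11, 22 or 23 or WT animal 13, 14, 21, 24, 28 or 33 (adjusted p 0.051 to 0.0722, log2 fold change 0.21 to 0.25), and *Tbk1* without A226Y animal 3, 7, 11, 18, 23, 29 or 32 or WT animal 4, 13, 14, 21, 24 or 28 (adjusted p 0.0529 to 0.0945, log2 fold change 0.13 to 0.17). The length offset ended the calls of *Wdfy3* (log2 fold change 0.094), *Atl3* (0.11), *Prkaa1* (0.19), *Trp53inp1* (0.40) and *Creb1* (0.12). The GC offset ended those of *Vmp1* (0.20), *Retreg3* (−0.18), *Prkaa1* (0.13), *Ncoa4* (0.33), *Trp53inp1* (0.38), *Creb1* (0.16) and *Tbk1* (0.12). Neither offset could adjust *Vamp7*, whose transcript length and GC content were not known, so its call there is no test. The surrogate variables ended all calls but 2, of which *Retreg2* is one (adjusted p = 0.0338). *Tbk1* was also lost with upper quartile scaling (0.0613), *Retreg3* with library size scaling (0.0616), and *Creb1* and *Tbk1* with limma-voom and with no filter beyond 1 count.

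Markers of nutrition and of other cells were set beside these values. Of all tested genes, 7.27% were higher in A226Y and 7.03% lower. Of 11 genes known to rise in fasting, 2 were higher in A226Y by log2 fold change, *Ppargc1a* 0.74 (adjusted p = 0.00539) and *Igfbp1* 1.68 (adjusted p = 0.0283). The estimates of all 11 were above 0, as were 6549 of all 13353, and the list median was 0.73 on the log2 scale. The summed levels of the 11 were 8569 to 17718 CPM in WT and 13584 to 24406 CPM in A226Y. The lowest A226Y sum was that of animal 29, and without it the lowest was 17190 CPM. Of 7 genes known to rise on feeding, 3 were lower, among them *Srebf1* −1.22 (adjusted p = 0.00551) and *Fasn* −0.68 (adjusted p = 0.0145). Of the 7 estimates, 0 were above 0. The summed levels of the 7 were 1388 to 4099 CPM in WT and 1006 to 2977 CPM in A226Y. Of the clock genes, 1 of 11 tested passed, *Clock* 0.61 (adjusted p = 0.000932). Of 8 markers of Kupffer cells and macrophages 1 was lower, *Clec4f* −0.65 (adjusted p = 0.0261), and the list median was −0.43. Their summed levels were 416 to 841 CPM in WT (median 604) and 278 to 1083 CPM in A226Y (median 377), where the highest mouse was 708 CPM without animal 29. Of 7 markers of stellate cells and fibroblasts 3 were lower, the collagens *Col1a1* −0.77 (adjusted p = 0.0162), *Col3a1* −0.60 (adjusted p = 0.00516) and *Col1a2* −0.33 (adjusted p = 0.0397). The other 4 did not pass, *Lrat* −0.17 (adjusted p = 0.26), *Dcn* 0.18 (adjusted p = 0.0913), *Des* 0.065 (adjusted p = 0.739) and *Reln* 0.0026 (adjusted p = 0.989). The summed levels of the 7 were 299 to 377 CPM in WT (median 317) and 308 to 367 CPM in A226Y (median 348). Of 8 hepatocyte markers 3 were higher, *Cps1* 0.55 (adjusted p = 0.0137), *Tat* 0.85 (adjusted p = 0.0331) and *Apob* 0.29 (adjusted p = 0.0329), and 1 was lower, *Serpina1a* −0.30 (adjusted p = 0.0358), with a list median of 0.086. No listed marker was at 0 in every mouse, and *Cldn4* and *Npas2* fell under the filter on low counts. None of the 8 lymphocyte, 7 sinusoidal endothelium, 5 tested cholangiocyte or 4 red blood cell markers passed, with 1, 1, 1 and 0 at an unadjusted p under 0.05. Of all 13353 tested genes, 3953 had such a p. Fewer cells of a type and less RNA per cell cannot be told apart in whole liver, and the part of these markers in the values of the autophagy genes was not tested.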

How the data were processed

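Liver RNA of 10 A226Y and 8 WT mice was analysed, 1 library per mouse, sequenced with single-end reads. For each mouse the authors deposited a raw count for each Ensembl gene, in whole numbers and not normalized. The submitters' processing notes name fastp, STAR, featureCounts and GRCm38, whereas the paper's methods name RSEM and another assembly; which made the counts was not resolved. The counts do not show strand, so members that share exons with a gene on the other strand are uncertain: *Becn1*, *Atg4d*, *Sqstm1*, *Atg2b*, *Map1lc3b*, *Atg9a* and *Atg16l2* share exon bases there with another counted gene, and *Tax1bp1*, *Rb1cc1*, *Uvrag*, *Gabarapl1*, *Bnip3*, *Atg14* and *Optn* with an annotated gene that was not in the counts. *Atg9a* also shares exon bases with an annotated gene on its own strand that was not in the counts. Identifiers were matched to GENCODE M21 (22291 of 22524).

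Following the study's filter, genes with at least 10 counts in 50% of the mice of one genotype were tested (13353 genes) with edgeR 4.0.16 in R 4.3.3: scaling by TMM, its two-sided quasi-likelihood test without covariates, and Benjamini-Hochberg adjustment over all tested genes. The SE is the log2 fold change divided by the square root of F. Single genes were also compared by a two-sided exact permutation test of log2 CPM (prior count 2). The members and gene lists were chosen with earlier results of these data known, so no p was adjusted over a list alone. Values per mouse are given for the 12 members with the smallest p and for those of each step with the largest change and the highest level per kilobase; *Calcoco2*, *Rtn3*, *Sec62* and *Ccpg1*, named after their values were seen, fall outside this rule, as do the marker genes. Other autophagy genes are named where they passed, at most 15. The values of some single genes are left out.

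Alternatives were RLE, upper quartile and library size scaling, 2 other filters, DESeq2 1.42.0, limma-voom (limma 3.58.1), 4 surrogate variables (sva 3.50.0), an offset for transcript length or GC content (both known for 99.6% of tested genes), and leaving out each mouse. Leaving out A226Y animal 29 and WT animal 33 together was added after seeing the data. The steps were tested on simulated counts. Each mouse had at least 23850565 counts, and the common biological coefficient of variation was 0.194. Counts of any 2 mice of one genotype differed by at least 20.1 in chi-square over its degrees of freedom, so each library was counted as 1 sample. Littermates are not identified in the labels.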

Additional observations from a re-analysis of the deposited data

Results flagged for a closer look

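In 13 of 82 groups of mice (41 members in each genotype) the highest or the lowest mouse lay farther from the nearest other mouse than Dixon's 95% limit allows. Chance flags about 1 in 20 groups, and the members of one mouse share its library.

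Of the 13, 6 belonged to A226Y animal 29, the mouse with the lowest hepatocyte and the highest Kupffer cell and macrophage marker sum. *Atg16l2* was highest in it at 14.3 CPM against 5.73 CPM in the nearest A226Y mouse, and the log2 fold change went from 0.39 to 0.055 without it. At 74.1 CPM against 99.2 CPM in the nearest A226Y mouse, *Atg3* was lowest there, and the log2 fold change went from −0.0058 to 0.035 without it. *Atg5* was lowest in it at 48.8 CPM against 56.5 CPM in the nearest A226Y mouse, and the log2 fold change went from −0.044 to −0.017 without it. At 2.91 CPM against 4.06 CPM in the nearest A226Y mouse, *Atg4a* was lowest there, and the log2 fold change went from 0.064 to 0.12 without it. *Atg10* was lowest in it at 3.06 CPM against 4.83 CPM in the nearest A226Y mouse, and the log2 fold change went from −0.022 to 0.052 without it. At 14.4 CPM against 12.2 CPM in the nearest A226Y mouse, *Tfeb* was highest there, and the log2 fold change went from −0.12 to −0.15 without it. The part of its marker levels in these values was not tested.

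WT animal 24 accounted for 3 groups. *Atg9a* was highest in it at 81.1 CPM against 69.1 CPM in the nearest WT mouse, and the log2 fold change went from −0.064 to −0.017 without it. At 163 CPM against 178 CPM in the nearest WT mouse, *Nbr1* was lowest there, and the log2 fold change went from 0.11 to 0.083 without it. *Atg4c* was lowest in it at 12.9 CPM against 16.5 CPM in the nearest WT mouse, and the log2 fold change went from 0.039 to −0.010 without it.

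The other 4 groups were spread over 4 mice. In WT animal 21, *Ambra1* stood at 29.6 CPM against 24.7 CPM in the nearest WT mouse, and the log2 fold change went from −0.14 to −0.096 without it. In WT animal 33, *Gabarapl1* stood at 219.9 CPM against 329 CPM in the nearest WT mouse, and the log2 fold change went from −0.20 to −0.27 without it. In WT animal 14, *Atg12* stood at 41.99 CPM against 33.9 CPM in the nearest WT mouse, and the log2 fold change went from 0.012 to 0.064 without it. In A226Y animal 3, *Atg4b* stood at 23.1 CPM against 24.9 CPM in the nearest A226Y mouse, and the log2 fold change went from −0.027 to −0.013 without it. None of the 13 genes passed an adjusted p of 0.05 in edgeR with all mice or without the mouse in question.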

How the results depend on the processing

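With all mice and the settings of the report, 4 members were higher and 1 lower, and 11 of the other autophagy genes were higher and 4 lower. Of all tested genes, 14.3% were called in the reported fit, 8.97% with no filter beyond 1 count, 11.7% with the length offset and 12.3% with the GC offset. The share was 18.1% with DESeq2, 14.4% with upper quartile scaling, 15.4% with library size scaling and 1.86% with surrogate variables. Members higher in A226Y numbered 2 with no filter beyond 1 count, 2 with the length offset and 0 with 4 surrogate variables. Under the surrogate variables 4 members had an unadjusted p under 0.05, in place of 10, and 248 genes were called in place of 1910. Members lower numbered 2 with upper quartile scaling, 2 with DESeq2, 4 with the length offset, 0 with library size scaling and 0 with surrogate variables. The length offset dropped *Atg2a* and *Atg2b* and added *Ulk2*, *Ambra1* and *Atg4d*. With the GC offset *Ulk2* was the only member lower. Other autophagy genes higher numbered 1 with surrogate variables, 6 with the length offset and 5 with the GC offset, and those lower numbered 1 with surrogate variables and 7 with the length offset. The causes were not tested.

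Leaving out 1 mouse at a time, members higher ranged from 1 to 5 and members lower from 0 to 2. Other genes higher ranged from 5 to 12 and lower from 3 to 6. In these fits 9.42% (without WT animal 14) to 19.2% (without A226Y animal 29) of all tested genes were called. The single call left without WT animal 13 or WT animal 24 was *Tax1bp1*. Without A226Y animal 29 and WT animal 33 together, *Rb1cc1*, *Atg2b*, *Atg7*, *Tax1bp1* and *Bnip3l* passed and *Atg2a* did not. Among the 19 members given by values per mouse and the other autophagy genes that passed, 835 comparisons kept direction and side of the threshold, 128 lost and 21 gained a call. The direction turned in 2, both far from the threshold: *Atg16l2* with surrogate variables (log2 fold change −0.014, adjusted p = 0.967; 0.27 to 0.817 over the single mice left out) and *Atg9a* with the GC offset (0.0017, adjusted p = 0.986; 0.382 to 0.859). No paired analysis was possible because the genotypes share no animal number. Depth was lowest for the members *Atg16l2* and *Atg4a*, with medians of 127.5 and 131 counts per mouse, and the share of counting error in the spread between mice was not measured.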
